A study of Mus musculus with 2 samples.

Results

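Imprinted genes were followed through the open chromatin of newborn mouse hindbrain. The set is a fixed list of 34 gene names, and all 34 were found among the 55413 genes annotated on chromosomes 1 to 19, X and Y. They lie at 18 loci on 10 chromosomes, 10 of these loci hold a single listed gene, and 28 of the genes are protein-coding while 6 give long noncoding RNAs. DNase-seq, which sequences DNA freed where DNase I can cut exposed chromatin, was done on hindbrain from healthy B6NCrl pups of both sexes, pooled, at 0 days after birth. There is 1 group of 2 biological replicates and no treatment, mutation or second condition. Both replicates are recorded under the same donor entry, and the labels do not say how many pups went into either, so differences between them may be technical. The mice are of an inbred strain, and the deposited lists of open regions do not separate the parental copies of a chromosome.

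An imprinted gene is transcribed mainly from the copy of a single parent, and the choice is held by DNA methylation that was set in the egg or the sperm at control regions. ZFP57, a zinc finger protein, binds the methylated word TGCCGC in many of these regions and keeps them methylated together with TRIM28, and CTCF binds the unmethylated maternal control region upstream of H19. In brain the paternally expressed genes include regulators of growth, maternal behaviour and neuronal survival, and the ubiquitin ligase gene Ube3a is imprinted in neurons.

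The sequences below carry the motif results given further on. The first group shows open regions of imprinted genes that hold the ZFP57 word TGCCGC. Those of Peg3, Gnas and Meg3 are the highest by score percentile among the regions that could be printed, and Kcnq1ot1, Rasgrf1 and Nnat, chosen after their values were seen, are the regions with 3 copies. All are 200 bp around the region centre, read 5′ to 3′ on the plus strand of mm10 from the RefSeq genome sequence, and capitals mark the word on either strand (TGCCGC or its reverse complement).
Peg3 intron, chr7:6729491-6729690: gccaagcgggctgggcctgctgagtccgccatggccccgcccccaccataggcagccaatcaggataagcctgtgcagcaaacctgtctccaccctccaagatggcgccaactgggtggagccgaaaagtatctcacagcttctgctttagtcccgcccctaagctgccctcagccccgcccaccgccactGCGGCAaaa
Gnas alternative start, chr2:174327321-174327520: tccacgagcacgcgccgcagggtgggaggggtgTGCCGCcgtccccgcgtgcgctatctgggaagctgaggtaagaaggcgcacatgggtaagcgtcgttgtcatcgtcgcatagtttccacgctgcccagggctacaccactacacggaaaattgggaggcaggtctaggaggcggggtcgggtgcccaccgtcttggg
Meg3 promoter, chr12:109540801-109541000: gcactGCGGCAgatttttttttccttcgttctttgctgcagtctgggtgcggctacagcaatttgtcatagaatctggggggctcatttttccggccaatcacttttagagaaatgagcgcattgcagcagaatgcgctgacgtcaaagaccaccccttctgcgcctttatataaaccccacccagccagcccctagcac
Kcnq1ot1 exon, chr7:143295651-143295850: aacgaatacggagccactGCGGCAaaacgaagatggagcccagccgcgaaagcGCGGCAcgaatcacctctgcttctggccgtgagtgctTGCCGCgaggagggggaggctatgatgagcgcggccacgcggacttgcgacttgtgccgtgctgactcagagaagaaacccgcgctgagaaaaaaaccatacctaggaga
Rasgrf1 upstream, chr9:89879681-89879880: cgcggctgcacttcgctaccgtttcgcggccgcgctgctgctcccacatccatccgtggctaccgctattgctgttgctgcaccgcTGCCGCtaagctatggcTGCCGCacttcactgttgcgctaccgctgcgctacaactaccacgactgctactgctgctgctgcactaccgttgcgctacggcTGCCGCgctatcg
Nnat, chr2:157560331-157560530: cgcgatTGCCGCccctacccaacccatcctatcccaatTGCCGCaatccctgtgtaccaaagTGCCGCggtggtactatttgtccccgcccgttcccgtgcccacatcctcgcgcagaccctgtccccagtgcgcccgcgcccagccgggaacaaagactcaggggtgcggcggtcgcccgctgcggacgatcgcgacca

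The second group shows regions for the other motifs, again the highest that could be printed, except that the Peg3 region was chosen after its values were seen for its 3 copies of the YY1 word. In the Peg3 intron capitals mark that word, GCCATNTT, in Usp29 and upstream of Dlk1 the CTCF core motif, and in Meg3 the NRF1 word GCATGCGC, whose copies on the plus and minus strands overlap in a palindrome. YY1 is a zinc finger factor known to bind the Peg3 control region, CTCF is the insulator and loop anchor protein, and NRF1 is an activator that binds unmethylated CpG-rich promoters. The sequences are again 200 bp on the plus strand of mm10.
Peg3 intron, chr7:6727801-6728000: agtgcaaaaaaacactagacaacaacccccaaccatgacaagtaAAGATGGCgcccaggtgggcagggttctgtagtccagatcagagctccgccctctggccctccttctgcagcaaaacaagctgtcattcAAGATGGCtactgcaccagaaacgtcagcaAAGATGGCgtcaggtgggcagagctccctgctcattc
Usp29 intron, chr7:6937211-6937410: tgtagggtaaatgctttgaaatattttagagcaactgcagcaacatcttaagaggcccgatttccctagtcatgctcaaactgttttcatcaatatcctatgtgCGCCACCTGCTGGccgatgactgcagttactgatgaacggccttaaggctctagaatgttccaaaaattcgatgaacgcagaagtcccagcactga
Dlk1 upstream, chr12:109393891-109394090: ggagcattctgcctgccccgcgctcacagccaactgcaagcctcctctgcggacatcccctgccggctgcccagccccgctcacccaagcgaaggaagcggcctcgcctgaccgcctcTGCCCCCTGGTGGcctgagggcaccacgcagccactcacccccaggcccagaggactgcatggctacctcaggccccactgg
Meg3 exon, chr12:109542911-109543110: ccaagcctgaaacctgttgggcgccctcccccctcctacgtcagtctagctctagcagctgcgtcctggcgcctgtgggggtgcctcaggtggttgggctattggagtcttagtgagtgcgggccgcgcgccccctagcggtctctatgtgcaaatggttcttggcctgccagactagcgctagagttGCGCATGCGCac

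Peaks are 150 bp summits of DNase cutting, listed separately for each replicate with a score that the authors gave as a whole number from 1 to 150 and whose scale is not stated. Replicate 1 had 270757 peaks on the chromosomes used and replicate 2 had 171790, and the part of this difference in peaks missing from replicate 2 was not tested. Scores are given below as replicate 1 and then replicate 2, and a score's percentile within its own list is used wherever genes are ranked. Hotspots are the wider stretches of raised cutting, with a −log10 q that is capped at 100. The number of reads is not in these lists, so the precision of a single peak is unknown and the intervals on shares cover counting error only. At marker genes of the labelled tissue, all 5 hindbrain position genes, all 4 neuronal genes and all 3 radial glia and astrocyte genes were open at the promoter in both replicates, and none of 3 liver and none of 3 skeletal muscle genes had a promoter peak in either. Among markers of tissue next to hindbrain, 2 of 4 meningeal or fibroblast genes (Col1a1 at 123 and 98, Foxc1 at 104 and 70), 1 of 3 endothelial genes (Cldn5 at 49 and 32) and 1 of 3 choroid plexus genes (Clic6 at 40 and 30) had a peak in both. Among forebrain position genes Emx2 had 73 and 52, while Emx1 had a peak, scored 62, in replicate 1 only. The part of such cells in the imprinted genes' peaks was not tested.

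Most imprinted genes had open promoters. A peak of each replicate lay within 500 bp of an annotated start site in 29 of the 34 imprinted genes, 85.3%, against 34.9% of all annotated genes. Of the 28 protein-coding imprinted genes 26 were open in both replicates, 92.9%, against 66.3% of all protein-coding genes. Of the 6 long noncoding imprinted genes 3 were open in both, Meg3, Airn and Kcnq1ot1, against 27.9% of all long noncoding genes. H19, Rian and Mirg had a promoter peak in replicate 1 only, as did 1035 of 13374 long noncoding genes and 4.76% of all genes. The protein-coding Ndn and Rtl1 had none in either, as did 6304 of 21938 protein-coding genes and 59.7% of all genes. Hotspots in place of peaks gave the same 29 genes, with 35.6% of all genes called. The hotspot value reached the cap of 100 in both replicates at 25 of the 34 imprinted genes, 73.5%, against 29.6% of all genes. Among the protein-coding imprinted genes it did so at 23 of 28, 82.1%, against 59% of all protein-coding genes. By the allele that textbooks give as active, 19 of 21 paternally expressed genes and 6 of 9 maternally expressed genes were open in both. The 3 maternally expressed genes that were not are the noncoding H19, Rian and Mirg. Ube3a, Grb10, Gnas and Inpp5f were left out of these groups, as their active copy depends on cell type, promoter or transcript, and each was open in both.

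**Figure D1:**
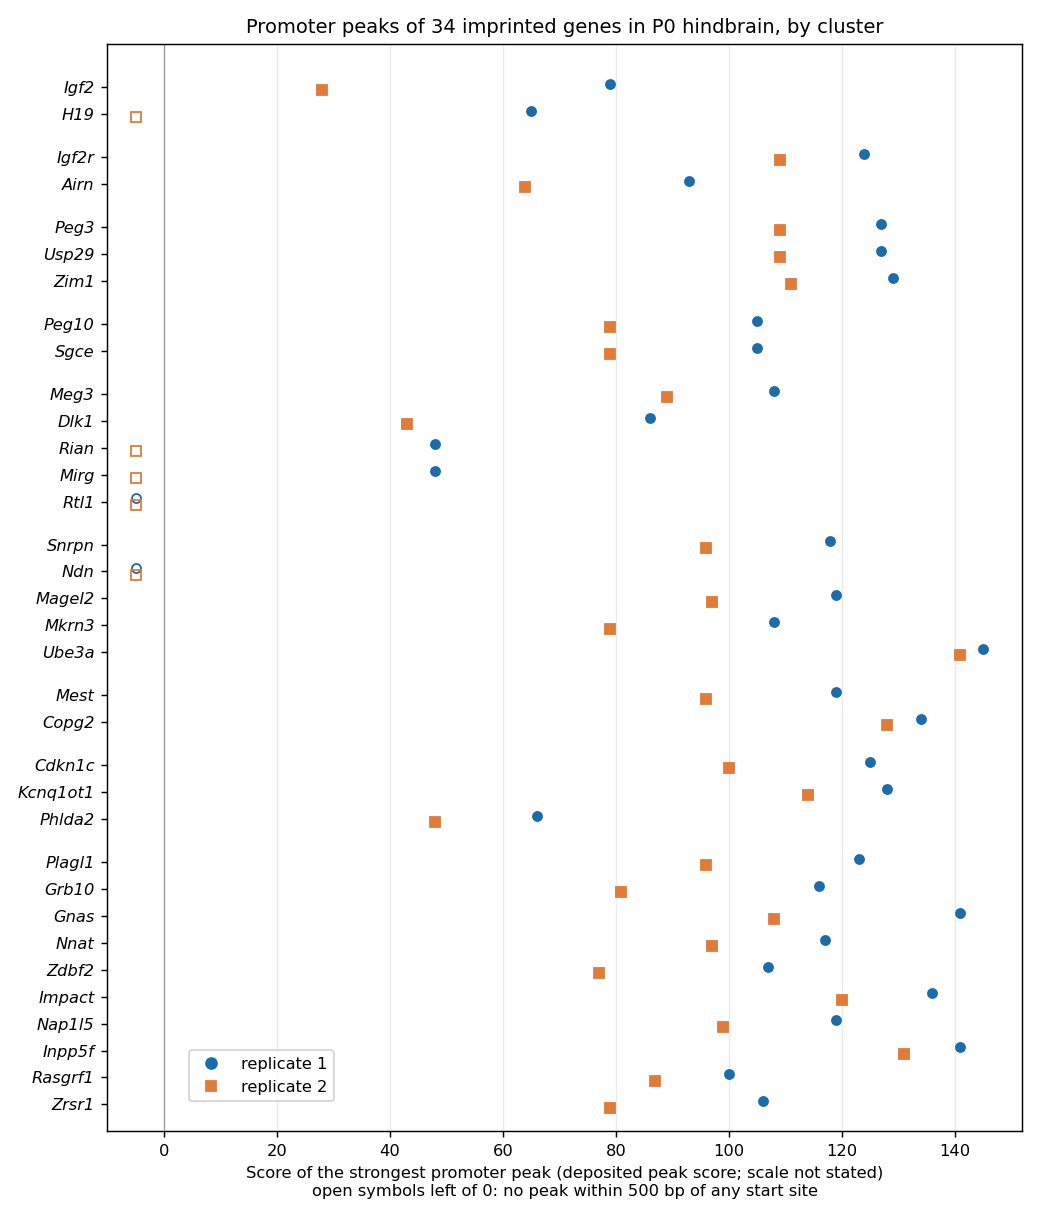
Score of the strongest peak within 500 bp of any start site of each imprinted gene, grouped by cluster with single-gene loci last, in replicate 1 (circles) and replicate 2 (squares); the score has no stated unit and open symbols mark no peak. Replicate 1 is higher in all 29 genes with both, Ube3a is highest at 145 and 141, and Ndn and Rtl1 have only open symbols.

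By the best peak of each gene, open imprinted promoters lay mostly below the middle of open protein-coding promoters. Among the 29 imprinted genes open in both replicates the median best score was 119 and 96, against 129 and 109 over the 14541 protein-coding genes open in both. On the percentile scale the median was 94.2 for the imprinted genes and 96.3 for protein-coding genes. When each imprinted promoter was ranked among those protein-coding promoters, the median rank was 35.9%, and 7 of 29 lay above the middle. The mean percentile was over 90 in 22 of the 29, and in 10921 of the 14541 protein-coding genes. Counted by region, the order was the other way. The 64 shared promoter regions of imprinted genes had a median score of 104 and 77, against 98 and 70 for all 29284 promoter regions. These are counts over a named list and were not tested. In bulk tissue a lower score can come from fewer cells with the site open or from less cutting per cell, and here also from the copy of a single parent being open, and these cannot be told apart. The order of the genes was shared by the replicates, with a Spearman rho of 0.954 across the 29 genes, which share their libraries and in 2 pairs the same region.

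**Figure D2:**
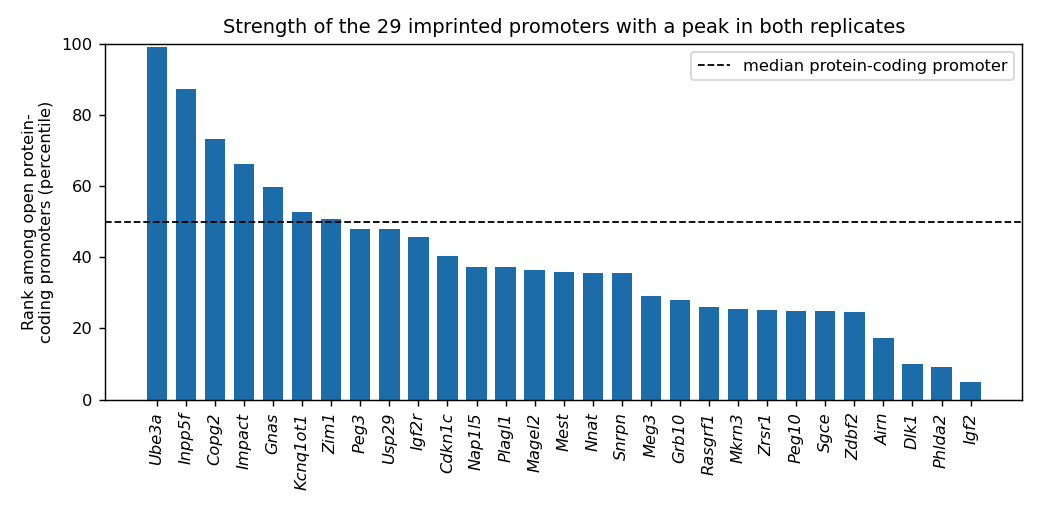
Percentile rank of each imprinted gene's best promoter peak among the protein-coding promoters open in both replicates (bars, mean of the percentiles within each list); the dashed line is the middle of the protein-coding promoters. Ube3a stands at 99.1 and Igf2 at 4.90, and 7 of the 29 bars pass the line.

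The strongest was Ube3a, the E3 ubiquitin ligase gene that neurons express from the maternal copy. Its start at the 5′ end (chr7:59228596-59228765 on mm10) carried a peak of 145 in replicate 1 and 141 in replicate 2, rank 99.1% among protein-coding promoters, with a further region of 106 and 77 at an alternative start 650 bp downstream. Inpp5f, a phosphoinositide phosphatase gene, followed with 141 and 131 (rank 87.2%) at its 5′ end. Copg2, a coat protein gene of vesicle transport, had 134 and 128 (rank 73.3%), and Impact, a regulator of translation under stress, had 136 in replicate 1 and 120 in replicate 2 (rank 66.3%), at different regions. In the other 28 genes open in both, the best peaks of the replicates lay in the same region. Gnas, which encodes the stimulatory G protein alpha subunit, had 141 and 108 (rank 59.7%). Above the middle of protein-coding promoters were also the noncoding Kcnq1ot1 with 128 and 114 (rank 52.7%) and Zim1, a zinc finger gene beside Peg3, with 129 and 111 (rank 50.8%).

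The weakest promoters open in both replicates were those of Igf2, Phlda2, Dlk1 and Airn. Igf2, the fetal growth factor gene, had 79 in replicate 1 but 28 in replicate 2, rank 4.90%, at an internal start 7286 bp from the 5′ end (chr7:142659396-142659665), and its hotspot −log10 q was 6 and 1.73. Phlda2, a growth-restraining gene best known from placenta, had 66 and 48 (rank 9.15%), and Dlk1, a Notch-related transmembrane protein gene, had 86 and 43 (rank 10.1%). The hotspot −log10 q of Dlk1 was 100 in replicate 1 but 1.85 in replicate 2. Airn, the noncoding RNA that silences Igf2r on the paternal copy outside neurons, had 93 and 64 (rank 17.5%), and Igf2r itself, the receptor that clears Igf2, had 124 and 109 (rank 45.8%). The replicate 2 score was lower in each of these genes, as it was in all 29 genes open in both. For Igf2 and Dlk1 replicate 2 placed the peak at percentile 26.1 and 57.5 of its list, against 81.7 and 85.3 in replicate 1.

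At the Igf2 and H19 locus the highest scores lay upstream of H19 and not at either promoter. H19, a maternally expressed noncoding RNA, had a promoter peak of 65 in replicate 1 and none in replicate 2. In the stretch upstream of H19, where its control region is known to lie, the replicates shared regions of 98 and 72 at 2168 bp, of 101 and 71 at 2608 bp, and of 90 and 69 at 3658 bp before the start (chr7:142580236-142580385, chr7:142580676-142580825 and chr7:142581716-142581885 on mm10). All 3 scored higher in replicate 1 than the H19 promoter itself. A weaker region of 36 and 26 lay 1098 bp upstream, and no distal region of both replicates had Igf2 as its nearest gene.

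At the Dlk1 and Meg3 locus the highest scores lay around the Meg3 promoter. Meg3, a maternally expressed noncoding RNA, had 108 and 89 at its 5′ end and 81 and 48 at an alternative start 1190 bp downstream. Regions nearest to Meg3 but outside the promoter window scored 111 and 99 at 742 bp past an alternative start, and 97 and 81 at 1710 bp before the start. Dlk1 had 6 distal regions, the strongest with 107 and 63 lying 58832 bp upstream. The noncoding Rian and Mirg, which host small nucleolar RNAs and microRNAs, each had a peak of 48 in replicate 1 and none in replicate 2. Rtl1, a retrotransposon-derived gene, had no promoter peak, but regions of 83 and 56 and of 73 and 41 lay inside it 4.31 and 3.99 kb from its start, nearest to the start of Mir3071.

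In the Snrpn and Ube3a region 4 of 5 genes were open in both replicates. Snrpn, a splicing factor gene, had its strongest region, 118 and 96, at an internal start 135048 bp from the 5′ end (chr7:60005096-60005245), where its known imprinted promoter lies, against 65 and 51 at the 5′ end itself. Magel2, a regulator of protein recycling, had 119 and 97, and Mkrn3, a ring finger gene linked to the timing of puberty in humans, had 108 and 79, with a further region of 124 and 101 in its exon 618 bp past the start. Ndn, which encodes the neuronal growth suppressor necdin, was counted as having no promoter peak. A strong region of 119 and 101 at chr7:62348216-62348365 lay 1.72 kb inside its annotated 5′ end, and this region is at the RefSeq start of Ndn, position 62348277. With RefSeq starts, an alternative chosen after seeing the data, Ndn was open in both replicates and Igf2 was not. RefSeq starts were matched for 28 of the 34 genes, and 25 of these 28 were open in both, as were 25 of them with the GENCODE starts. H19, Peg10, Sgce, Rtl1, Cdkn1c and Impact were not matched.

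Peg3 showed a broad open block. Peg3, a zinc finger gene known for maternal care, and Usp29, a ubiquitin protease gene, are transcribed away from each other and share a promoter region of 127 and 109, so they are not independent. The hotspot over it spanned 3669 bp in replicate 1 and 4200 bp in replicate 2, against medians of 1150 and 1101 bp over protein-coding genes. Within the Peg3 intron, where its control region is known to extend, shared regions scored 127 and 116 at 828 bp, 130 and 107 at 2518 bp, and 116 and 105 at 2878 bp from the nearest start. A further peak scored 136 in replicate 1, 1.8 kb from the 5′ end, and 122 in replicate 2, 1.96 kb from it, and these did not overlap. Peg10, a retrotransposon-derived gene needed in placenta, and Sgce, a sarcoglycan gene linked to a movement disorder in humans, likewise shared a region of 105 and 79, and a stronger one of 128 and 114 lay 1844 bp into Peg10.

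**Figure D3:**
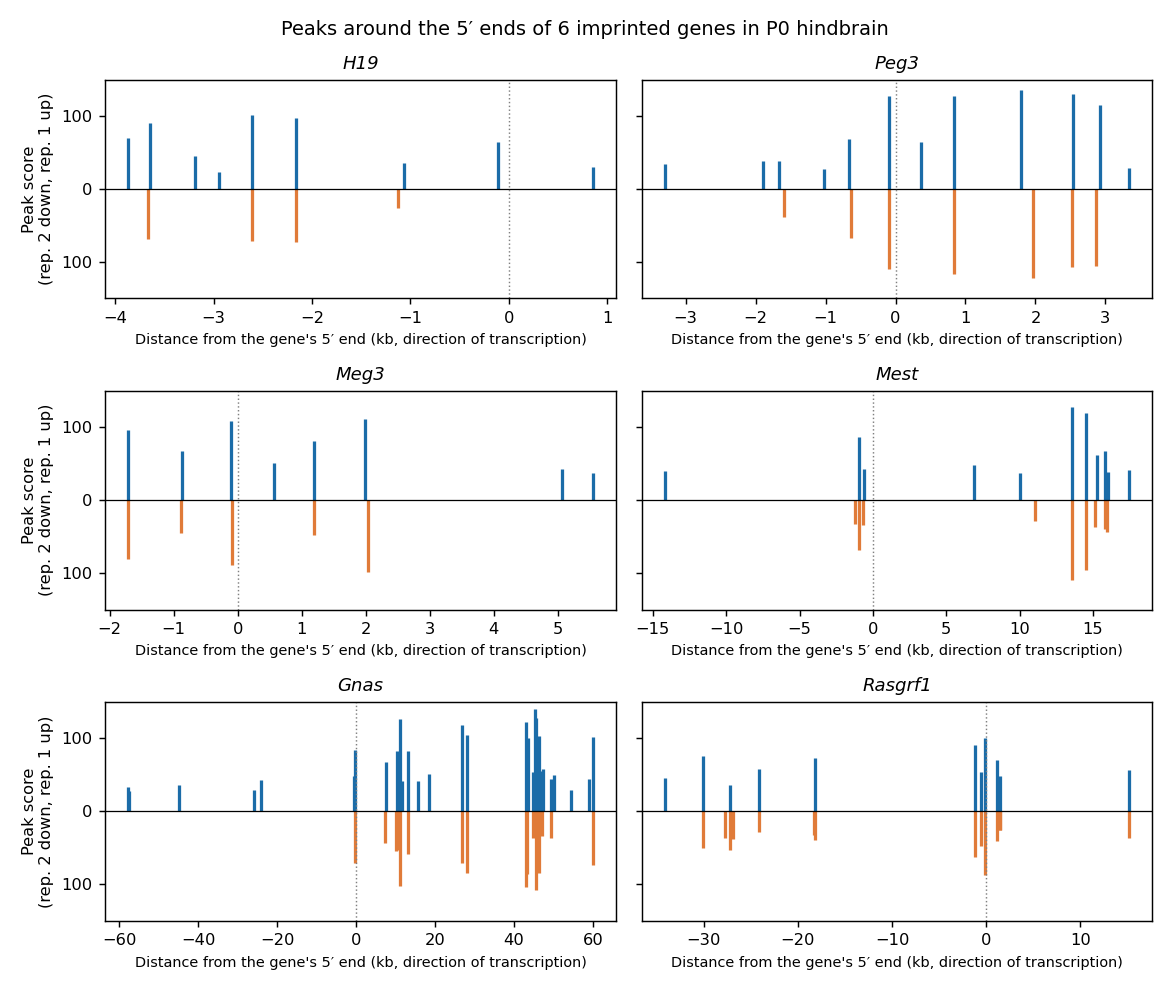
Peaks of replicate 1 (blue, up) and replicate 2 (orange, down) around H19, Peg3, Meg3, Mest, Gnas and Rasgrf1; the x axis is distance from the gene's 5′ end in kb along its transcription and the y axis is the authors' peak score. H19 has its highest peaks upstream, 101 and 71, Peg3 a run of peaks over 100 inside the gene, and Mest its highest more than 10 kb past the 5′ end.

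Several imprinted genes were strongest at an internal start of the GENCODE annotation. Mest, a hydrolase gene, had 119 and 96 at a start 14494 bp past its 5′ end (chr6:30737956-30738125), and 128 and 109 in the intron 930 bp before that start. Plagl1, a zinc finger regulator of growth, had 123 and 96 at 30226 bp and 34 and 26 at the 5′ end. The only RefSeq start of Plagl1 lies 30328 bp past this 5′ end, beside the stronger region, so here internal depends on the annotation. Grb10, an adaptor that restrains growth in most tissues and is paternally expressed in neurons, had 116 and 81 at 12742 bp and 7 shared promoter regions in all, and its highest distal region scored 128 and 103. Gnas had 141 and 108 at 45480 bp (chr2:174329716-174329885), 123 and 104 at 43100 bp and 84 and 71 at the 5′ end. Impact had 134 and 120 at 18058 bp, 136 and 108 at 18548 bp and 122 and 83 at the 5′ end. Inpp5f, strongest at its 5′ end, also had 117 and 100 at 77092 bp, in the stretch where its short paternally expressed transcript is known to start. In 3 of the 29 open genes, Igf2, Mest and Phlda2, 10.3%, the 5′ end itself had no peak of both replicates, against 8.47% of protein-coding genes open in both. Imprinted genes had a median of 6.50 annotated start sites, and the protein-coding ones among them 4.5, against 3 for all protein-coding genes. Imprinted genes so had more windows in which a peak can be counted. At the 5′ end alone 23 of the 28 protein-coding imprinted genes had a peak in both replicates, against 60.7% of protein-coding genes.

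The other genes fell between these extremes. Cdkn1c, a cell cycle inhibitor, had 125 and 100, Nap1l5, a nucleosome assembly gene, 119 and 99, and Nnat, a neuronal endoplasmic reticulum protein gene, 117 and 97. Zdbf2, a zinc finger gene, had 107 and 77, Zrsr1, a splicing factor gene, 106 and 79, and Rasgrf1, a Ras exchange factor gene of neurons, 100 and 87. The hotspot −log10 q of Zdbf2 was 100 in replicate 1 but 2.54 in replicate 2. Nap1l5 lies within Herc3, Nnat within Blcap and Zrsr1 within Commd1, and each has a start site of that host gene within 500 bp. In all, 18 of the 34 genes had a start site of another annotated gene that near, so their peak may belong to either gene. The same share over all genes was not counted, so whether 18 of 34 is unusual is unknown.

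The 500 bp limit decided a few regions. Just inside it were the regions of 59 and 45 upstream of Mkrn3 and of 46 and 32 in Copg2, centred 562 and 516 bp from the start. Just outside were 61 and 35 at 596 bp in Plagl1 and 54 and 47 at 578 bp before Rasgrf1, which were counted as distal.

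The CpG content around the 5′ ends of all imprinted genes together lay near that of protein-coding genes. For genes strongest at an internal start, this window is not their strongest open region. Over 500 bp on each side of the 5′ end, the median ratio of observed to expected CpG was 0.574 in all 34 imprinted genes. It was 0.552 in protein-coding genes and 0.259 in all genes. Within the classes, it was 0.622 in the 28 protein-coding imprinted genes. In the 6 long noncoding imprinted genes it was 0.462, against 0.230 in all long noncoding genes. The ratio was over 0.6 in 47.1% of the 34 imprinted genes and in 46.0% of the protein-coding genes. Zdbf2 was highest at 0.981, and Igf2 lowest at 0.0606, at a 5′ end without a peak of both replicates. The open internal start of Igf2 had a ratio of 0.968 in 200 bp.

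Away from start sites, 104 regions of both replicates had an imprinted gene as their nearest gene. Of the 34 genes 27 had at least 1 such region and 7 had none. Among all 55413 genes 26024 had none, and among 21938 protein-coding genes 8720 had none. The median was 3 per gene, against 1 for all genes and 1 for protein-coding genes. The sequence nearest to a gene had a median length of 38.97 kb for imprinted genes, against 26.2 kb for all genes and 28.1 kb for protein-coding genes. The imprinted genes had 6.72 distal regions per 100 kb of it, against 3.94 for all genes and 5.02 for protein-coding genes. Rasgrf1 had 9, Grb10 8, Igf2r and Plagl1 7 each, and Ndn, Mest and Dlk1 6 each. Of the 104 regions 61 lay in introns, 33 between genes and 10 in exons. Their median score was 67 and 46.5, against 60 and 40 for all 107430 distal regions. The strongest were in Impact (136 and 117), the Peg3 intron, Peg10, Mest and Grb10. Igf2, Nnat, Rian, Rtl1, Ube3a, Zdbf2 and Zim1 had none.

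**Figure D4:**
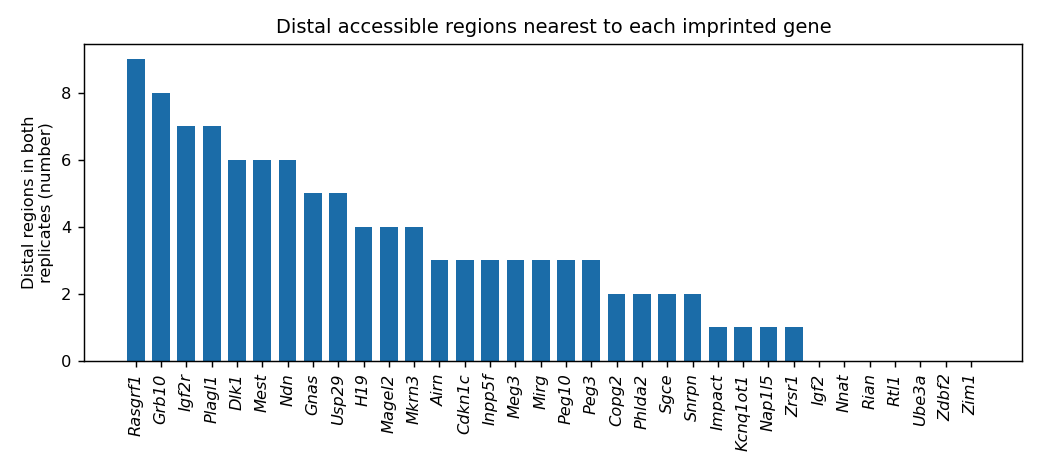
Number of distal regions (over 500 bp from every annotated start site, with a peak of each replicate) whose nearest start site belongs to each imprinted gene. Rasgrf1 has 9 and Grb10 8, and 7 genes have none.

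The ZFP57 word TGCCGC was found in 27 of the 168 open regions of imprinted genes, 16.1% (exact binomial 95% interval 10.9 to 22.5), against 6.82% of all regions, within 200 bp around the centre. It was found in 15 of 64 shared promoter regions of imprinted genes, 23.4% (13.8 to 35.7), against 14.9% of all promoter regions. In their distal regions it was found in 12 of 104, 11.5% (6.11 to 19.3), against 4.61% of all distal regions. At least 2 copies were present in 11 of the 168 regions of imprinted genes, 6.55% (3.31 to 11.4), against 0.576% of all 136714 regions. These 11 regions belong to Nap1l5, Inpp5f, Mest, Snrpn, Nnat, Kcnq1ot1, Rasgrf1, Airn, Cdkn1c and, with 2 regions, H19. ZFP57 is known to bind this word in many control regions of imprinted genes, so a higher share here is no independent result. The intervals treat neighbouring regions, such as the 2 of H19, as independent. Regions with 3 copies were at Kcnq1ot1 (85 and 60), Rasgrf1 (76 and 50) and Nnat (70 and 49), 3 of 168, against 92 of 136714 regions, 0.0673%. The Rasgrf1 region lies 30128 bp upstream of the gene, in the stretch where its paternally methylated control region is known, and the Kcnq1ot1 region lies 798 bp into the transcript, within the known control region of that cluster.

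The word holds a CpG, and open regions of imprinted genes were richer in CpG than others, with a median observed to expected ratio of 0.715 against 0.699 in promoter regions and of 0.378 against 0.245 in distal ones. Among regions with a ratio of 0.6 or more, at least 1 copy was found in 15 of 44 promoter regions of imprinted genes, 34.1% (20.5 to 49.9), against 20.1% of all, and in 9 of 23 distal regions, 39.1% (19.7 to 61.5), against 13.8% of all. Under that ratio the share was no higher than in all regions. At least 1 copy was found there in 0 of 20 promoter regions of imprinted genes, which allows a share of up to 16.8%, against 7.25% of all, and in 3 of 81 distal regions, 3.70% (0.770 to 10.4), against 3.79% of all. Among promoter regions with a ratio of 0.6 or more, at least 2 copies were found in 6 of 44 regions of imprinted genes, 13.6% (5.17 to 27.4), against 2.72% of all. Among distal regions with such a ratio they were found in 5 of 23, 21.7% (7.46 to 43.7), against 1.63% of all. Under that ratio no region of an imprinted gene held 2 copies, 0 of 20 promoter and 0 of 81 distal regions, which allows a share of up to 16.8% and 4.45%, against 0.418% and 0.12% of all such regions. A match is a string in the reference genome and not a bound site.

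**Figure D5:**
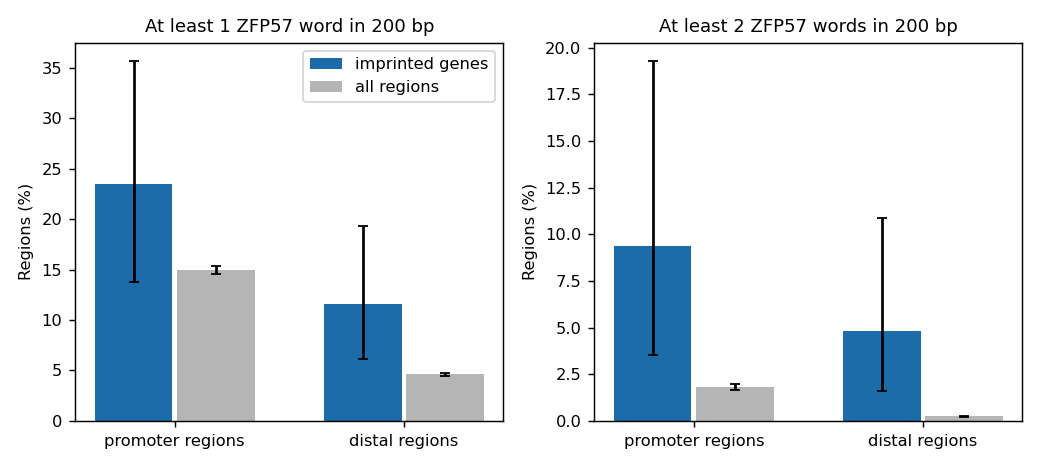
Share of open regions, in percent, that hold at least 1 (left) and at least 2 (right) copies of TGCCGC on either strand in 200 bp, for the imprinted genes (blue) and for all regions (grey), promoter and distal; error bars are exact binomial 95% intervals. At least 2 copies are held by 9.38% of imprinted promoter regions against 1.8% of all, and by 4.81% of imprinted distal regions against 0.244% of all.

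The other motifs were rarer. The YY1 word was in 4 of 168 regions of imprinted genes, 2.38%, against 3.95% of all regions. The Peg3 intron region of 130 and 107 held 3 copies, as did 9 of all 136714 regions, 0.00658%, and the neighbouring region of 127 and 116 held 1. A CTCF motif, core or H19 type, was in 10 of 104 distal regions, 9.62% (4.71 to 17.0), against 5% of all distal regions. It was in none of 64 promoter regions, which allows a share of up to 5.60%, against 1.47% of all promoter regions. The 10 regions were nearest to Usp29, Cdkn1c, Magel2 and H19, each with 2, and to Mkrn3 and Dlk1. The H19-type motif was drawn in the literature from the H19 control region, so its presence in both H19 regions is no independent result; 15 of all 136714 regions, 0.011%, held it. The NRF1 word was in 5 of 168 regions, 2.98%, at Ndn, Nnat, Meg3, Zrsr1 and Mkrn3, against 1.14% of all regions. In promoter regions the shares were close, 2 of 64, 3.1%, against 2.89% of all promoter regions. In distal regions it was in 3 of 104, 2.88% (0.599 to 8.20), against 0.669% of all distal regions.

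Of 56 further genes known to be imprinted 43 were open at the promoter in both replicates, with a median best score of 117 and 84. Of these 56 genes 49 are protein-coding, and 40 of them were open in both, 81.6%, against 66.3% of all protein-coding genes. Of the 6 long noncoding ones 3 were open in both, against 27.9% of all long noncoding genes. The highest were Tssc4 (148 and 140), Chrac1 (142 and 132), Nap1l4 (137 and 132), Trappc9 (130 and 129), H13 (133 and 120) and Gab1 (138 and 114), and 6 had none in either replicate, Cpa4, Nctc1, Slc22a2, Th, Zfp264 and Zim3. Among 11 genes for keeping or removing imprints, all protein-coding, 9 were open in both, 81.8%, against 66.3% of all protein-coding genes. Trim28, the corepressor that ZFP57 recruits, had 134 and 126, Zfp57 itself 123 and 88, Zfp445, a related zinc finger gene, 133 and 108, and Dnmt1, the maintenance methyltransferase gene, 132 and 122. Dnmt3l, a cofactor of germ cell methylation, had 41 in replicate 1 only, and Dppa3, which protects methylation in the egg, had none.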

How the data were processed

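DNase-seq peaks and hotspots of 2 replicates of newborn hindbrain were used as deposited, on mm10 per the labels. Per the file headers the authors called both for each library separately. The sources used here do not give the aligner, the caller or their versions and thresholds, and read depth is unknown. The deposited peak score is a whole number of unstated scale and was used only to describe, rank or filter peaks within a list. The deposited hotspot value is a −log10 q capped at 100. Regions on other scaffolds were left out, and identical peaks were kept.

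Genes and start sites came from GENCODE vM21. Shared regions are merged peaks with at least 1 bp of overlap between lists. A region more than 500 bp from any start site is distal and goes to the nearest one. Motifs were searched on both strands of 200 bp around each region's centre, and intervals are exact binomial (Clopper-Pearson) at 95%. Levels of a peak cannot be compared across replicates as amounts. With 1 group no test between conditions was possible, and none was run. The members, lists, motifs and alternatives were chosen with earlier results of these data known. The text names all 34 genes and, of further imprinted genes, up to 6 with the highest mean percentile of score and up to 6 with no peak. RefSeq starts matched 28 of 34 genes. Sequences are from RefSeq's mm10 (GRCm38) assembly. Scripts, tested on simulated data, used Python 3.11.15, pandas 2.3.3, SciPy 1.17.1 and samtools 1.23.1. A listed marker gene is not reported here.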

Additional observations from a re-analysis of the deposited data

How the results depend on the processing

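The 29 imprinted genes with a promoter peak in both replicates numbered 26 to 29 under a 1000 bp window, the stronger part of each list, the 5′ end alone, hotspots and lists of equal length, and 29 to 32 when replicate 1 or replicate 2 was left out. With RefSeq starts for the 28 genes matched (an alternative chosen after seeing the data) 25 of these 28 were open in both, and the count was 29 only with the GENCODE calls kept for the 6 unmatched genes, of which 4 were open. Igf2 was lost in the stronger part of each list, and Igf2, Mest and Phlda2 at the 5′ end alone. H19, Mirg and Rian were gained without replicate 2. The share of all genes was 38.1% with the 1000 bp window, 31.4% in the stronger part, 32.4% at the 5′ end alone, 35.6% with hotspots, 34.1% with equal lists, and 35.6% to 39.7% with a replicate left out. The count of 43 further imprinted genes ranged from 32 to 44, and from 43 to 50 with a replicate left out. The median percentile of the imprinted genes' best peak was 92.4 at the 5′ end alone, against 94.2, and 92.9 to 95.4 with a replicate left out. The 104 distal regions became 63 in the stronger part of each list and 232 when nearest start sites were limited to protein-coding genes and the listed genes, where fewer genes compete, and 122 to 198 with a replicate left out. The share of them with a CTCF motif ranged from 5.17% to 15.9%, within the interval of the 9.62% reported. The share of promoter regions with at least 2 copies of TGCCGC was 9.38%, 11.1% in the stronger regions and 17.2% in 400 bp, against 1.8%, 2.49% and 4.89% of all promoter regions (alternatives chosen after seeing the data). No paired analysis was possible because there is only 1 group. Depth is unknown, so a peak missing from a list was not detected and is not shown to be absent.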

Other observations

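Taken from each replicate's own list, the distal regions nearest to imprinted genes numbered 198 in replicate 1 and 122 in replicate 2. The gap was uneven between genes. Dlk1 had 28 in replicate 1 and 6 in replicate 2, Grb10 had 18 and 11, and Gnas had 12 and 5. Rasgrf1 had 10 in replicate 1 and 12 in replicate 2, although the list of replicate 2 was the shorter. The cause of these differences was not tested.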
